A study of Mus musculus with 8 samples.

Results

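Oxidative phosphorylation is the process by which mitochondria pass electrons from NADH and succinate to oxygen and use the energy to make ATP. The genes described here are 43 nuclear genes for its subunits: 17 of complex I (the Nduf genes), 4 of complex II (Sdh), 6 of complex III (Uqcr and Cyc1), 9 of complex IV (Cox), 6 of complex V (Atp5) and Cycs, which encodes cytochrome c. They were chosen by name, as entries of the deposited count table, with earlier results of these data known. All 43 were found among the 23284 entries, and all 43 were among the 13005 genes with enough reads to be tested.

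The samples were hematopoietic stem and progenitor cells (HSPCs) sorted from mouse bone marrow, with RNA from 2000 cells per sample. Of 8 libraries, 4 were labelled Hdc-/- (a C57BL/6 background) and 4 were from wild-type C57BL/6 animals (WT). Histidine decarboxylase, the product of Hdc, makes histamine from histidine. The sources used here give neither the deleted part of Hdc, the sort markers, nor the age and sex of the mice, and do not say that each sample was a separate mouse. The spread behind the p-values may therefore be technical.

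Libraries labelled Hdc-/- held 17218697 to 19775106 reads on named genes, and WT libraries 16322738 to 18054954. Hdc itself went against its label. It averaged 43.02 ± 0.896 CPM (read counts scaled to a common library size, here with edgeR's TMM method) in libraries labelled Hdc-/-, against 14.3 ± 1.56 CPM in WT (SD, n = 4 each), a log2 fold change of 1.58. Counts are per gene, so a transcript left by an altered allele would be counted too. Every direction below rests on the labels. Of the libraries labelled Hdc-/-, 3 carry the numbers 1 to 3 and the other is called the unnumbered library. WT library 1 stood apart from the other 7 on the second principal component, which held 14.97% of the variance, while the first held 35.4% and separated the groups. Values without WT 1 are therefore given beside those from all 8 libraries. Over all 13005 genes, 267 rose and 352 fell (edgeR's quasi-likelihood test, Benjamini-Hochberg adjusted p under 0.05).

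Complexes I and II take electrons from NADH and succinate, complex III hands them to cytochrome c, and complex IV passes them to oxygen. Complexes I, III and IV pump protons as they do so, and complex V lets the protons back through to make ATP. Quiescent blood stem cells are known to lean on glycolysis and to raise mitochondrial respiration as they commit to differentiate. Several subunits of complexes I, III, IV and V are encoded in mitochondrial DNA. A search by name for 13 of these found 0 among the deposited counts, so they were not analysed here.

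Many respiratory subunit genes are known targets of nuclear respiratory factor 1 (NRF1), which was first described at the cytochrome c promoter of the rat. RefSeq promoter sequences (GRCm38.p6, a later build than the mm9 of the counts) were matched for 32 of the 43 genes. In the 250 bases before the start site, the NRF1 core CGCNTGCG stood on either strand in 8 of the 32 (25.0%), against 7.65% of 27025 genes. Those 8 were Ndufa5, Ndufs6, Sdha, Sdhd, Cox6a1, Atp5c1, Atp5j and Cycs. The following windows are shown because they hold the palindromic form of the core, in capitals, and belong to subunits of complex IV and complex V and to cytochrome c. They are on the minus strand, at chr5:115349092-115349139 for Cox6a1, chr16:84835096-84835143 for Atp5j and chr6:50566603-50566650 for Cycs.
Cox6a1: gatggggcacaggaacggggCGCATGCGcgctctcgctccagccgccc
Atp5j: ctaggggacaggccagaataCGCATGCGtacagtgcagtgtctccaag
Cycs: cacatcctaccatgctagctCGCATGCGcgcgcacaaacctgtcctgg
In these windows the motif lies 161, 147 and 61 bases before the start of Cox6a1, Atp5j and Cycs. The ETS motif CCGGAAG was found in 15.6% of the 32 promoters, against 7.83% of all genes. The cyclic AMP response element TGACGTCA was found in 2 of the 32 (6.25% against 1.77%). The YY1 motif AAGATGGC was found in 1, that of Atp5j (3.12% against 1.83%). Shares were closer for the GC box GGGCGG (37.5% against 35.4%) and CCAAT (37.5% against 37.5%). The E box CACGTG stood in 1, that of Ndufv1 (3.12% against 6.86%). All were searched on both strands, and none contains another. These are matches of letters and not measured binding.

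The 2 genes on which the results below turn most are Ndufa9 and Ndufa4, and the 150 bases before their start sites are shown for that reason. Both are on the minus strand, Ndufa9 at chr6:126849145-126849294 and Ndufa4 at chr6:11907451-11907600. None of the motifs above was found in the 250 bases before either start.
Ndufa9: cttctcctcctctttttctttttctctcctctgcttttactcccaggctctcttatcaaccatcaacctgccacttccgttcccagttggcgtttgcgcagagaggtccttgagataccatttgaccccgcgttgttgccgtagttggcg
Ndufa4: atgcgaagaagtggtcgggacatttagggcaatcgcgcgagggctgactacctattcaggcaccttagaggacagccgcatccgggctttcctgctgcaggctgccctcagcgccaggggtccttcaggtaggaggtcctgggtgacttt

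The subunit genes as a group lay slightly lower in the libraries labelled Hdc-/-, and 1 of the 43, Ndufa9, fell past the threshold. None rose (0 by edgeR and by limma-voom, 1 by DESeq2, and 1 at an unadjusted p under 0.05). The share of all genes called in either direction was 4.76%, so 1 of 43 is no more than the background. Fitted fold changes were below 0 for 41 of the 43, against 49.1% of all genes, and their median was -0.12 on the log2 scale, against 0.00407 over all genes. That median equals a difference of 8.01%, and the lowest fold change, -0.28 for Ndufs6, one of 17.4%. An unadjusted p under 0.05 was found for 17 of the 43, 16 of them lower, against 18.7% of all genes. The median standard error was 0.0757. In bulk RNA, fewer cells of a type and less RNA per cell cannot be told apart.

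The group ranges of CPM did not overlap for 10 genes, all lower in the libraries labelled Hdc-/-: Ndufa9, Ndufv1, Ndufv2, Sdhc, Sdhd, Uqcrc2, Uqcrq, Cyc1, Cox5a and Atp5o. Over all genes, 6.88% had ranges that did not overlap with the libraries labelled Hdc-/- lower, and 5.64% with them higher. Of the 43 genes, 0 were in the second class. WT 1 was the highest of the 8 libraries for 38 of the 43 genes, against 25.3% of all genes. Without WT 1 the median was -0.05, 34 of 43 were below 0 (48.5% of all genes) and 10 had ranges that did not overlap with the libraries labelled Hdc-/- lower (9.57% of all genes). Calls without WT 1 were Ndufa9, lower, and Ndufa4, higher (6.19% of all genes were called in that fit).

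**Figure D1:**
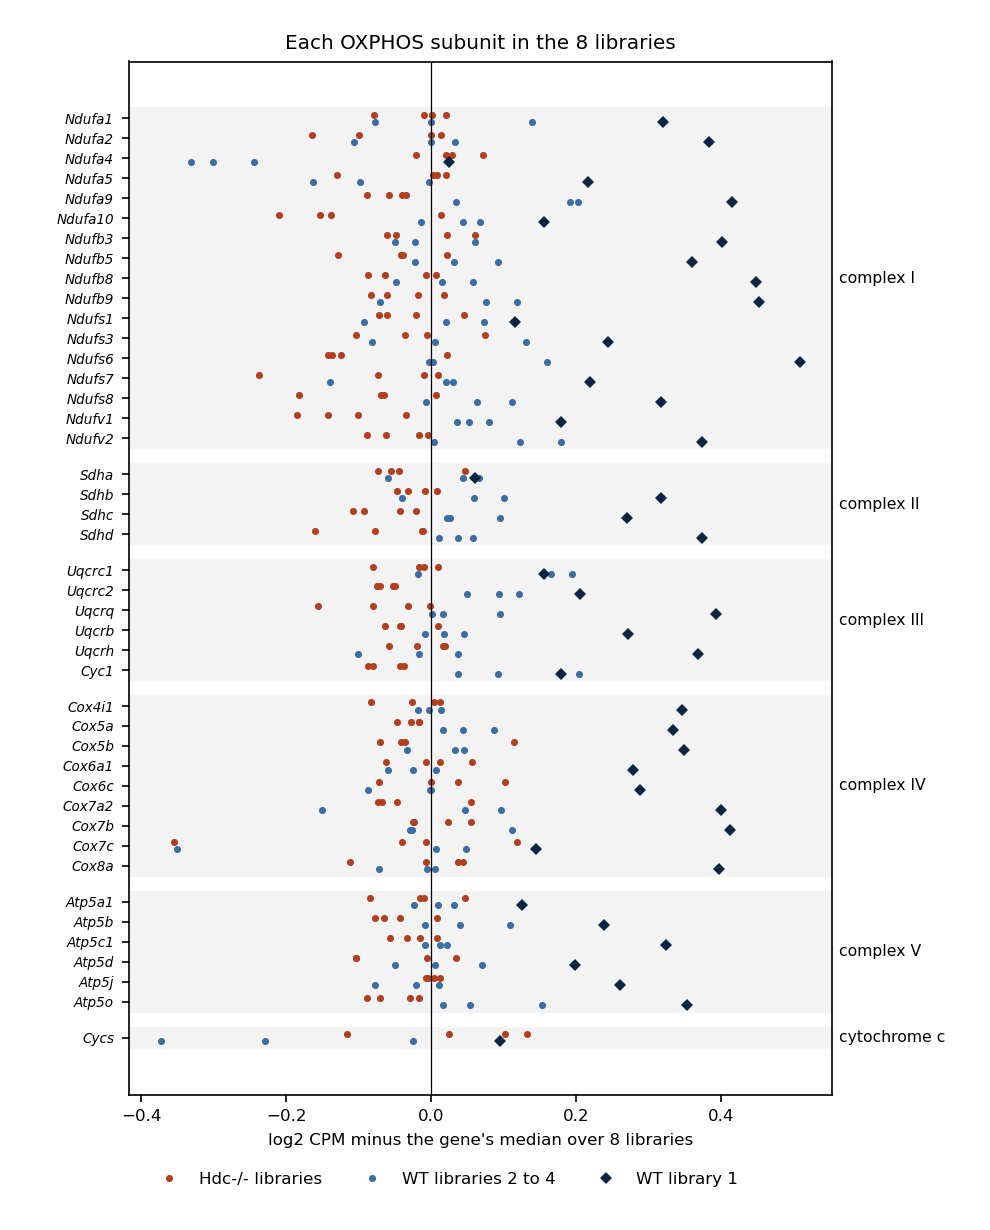
Level of each of the 43 subunit genes in each library, as log2 CPM minus the median of that gene over the 8 libraries (x axis), with genes down the page by complex. Red points are the 4 libraries labelled Hdc-/-, blue points WT libraries 2 to 4 and dark diamonds WT library 1, which is the highest library for 38 of the 43 genes.

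Complex I takes electrons from NADH at the tip of an arm in the matrix and pumps protons through an arm in the membrane. Its 17 genes had a median fold change of -0.17, with 16 below 0 and 1 called, Ndufa9. Without WT 1 the median was -0.05 and the calls were Ndufa9 and Ndufa4. Of all genes, 49.1% were below 0 and 4.76% were called with all 8 libraries, and 6.19% were called without WT 1. The 6 core subunits of the matrix arm (Ndufv1, Ndufv2, Ndufs1, Ndufs3, Ndufs7 and Ndufs8), which carry or surround the flavin and iron-sulfur clusters, had a median of -0.16. The 4 accessory subunits of the matrix arm had -0.21 and 6 accessory subunits of the membrane arm -0.17. Without WT 1 these medians were -0.09, -0.09 and -0.06. Differences between the arms were not tested.

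Ndufa9 is an accessory subunit of complex I where the matrix arm meets the membrane arm. Its level was 169.9, 172.7, 166.4 and 172.0 CPM in libraries 1, 2, 3 and unnumbered of the group labelled Hdc-/-, against 235.8, 201.9, 181.1 and 203.6 CPM in WT libraries 1 to 4. Each library labelled Hdc-/- lay below each WT library, with WT 3 the closest and WT 1 the farthest. The libraries behind these values held 2965 to 3357 reads of the gene where labelled Hdc-/-, against 3268 to 4063 in WT. Means were 170.2 ± 2.84 CPM in libraries labelled Hdc-/-, against 205.6 ± 22.6 CPM in WT (SD, n = 4 each), a log2 fold change of -0.27 (SE 0.0725, edgeR adjusted p = 0.0401). Without WT 1 it was -0.20 (edgeR adjusted p = 0.032). The call was lost in limma-voom and in edgeR without any 1 of the libraries labelled Hdc-/- or without WT 2 or WT 4, where the direction stayed the same.

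Ndufa4, long counted with complex I and now assigned to complex IV, was the one gene of the Nduf group with a fitted fold change above 0. Its level was 307.4, 296.7, 298.3 and 288.4 CPM in libraries 1, 2, 3 and unnumbered of the group labelled Hdc-/-, against 297.5, 247.0, 237.4 and 232.4 CPM in WT libraries 1 to 4. WT 1 lay among the libraries labelled Hdc-/- and the other 3 WT libraries lay below all 4 of them. Means were 297.7 ± 7.76 CPM in libraries labelled Hdc-/-, against 253.6 ± 29.9 CPM in WT (SD, n = 4 each), a log2 fold change of 0.23 (SE 0.0719, edgeR adjusted p = 0.081). With all 8 libraries the gene did not pass in edgeR, and it did in DESeq2 (adjusted p = 0.0481). Without WT 1 the fold change was 0.32 (SE 0.0445, edgeR adjusted p = 2.3e-04) and the groups did not overlap.

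Among the other complex I genes, Ndufv1 and Ndufv2 had group ranges that did not overlap. Over all genes, 6.88% had such ranges with the libraries labelled Hdc-/- lower. Ndufv1, which binds the flavin that accepts electrons from NADH, had 170.3, 162.7, 158.1 and 153.5 CPM in libraries 1, 2, 3 and unnumbered of the group labelled Hdc-/-, against 197.7, 178.8, 184.4 and 180.9 CPM in WT libraries 1 to 4. The log2 fold change was -0.20 (SE 0.0613, edgeR adjusted p = 0.0732), and -0.17 without WT 1 (edgeR adjusted p = 0.0612). The 4 WT libraries all lay above the 4 labelled Hdc-/-, and WT 1 was the highest. Ndufv2, which holds an iron-sulfur cluster beside that flavin, had 177.2, 186.3, 180.5 and 187.9 CPM in libraries labelled Hdc-/-, against 244.2, 213.3, 189.0 and 205.2 CPM in WT. Its fold change was -0.22 (edgeR adjusted p = 0.105), and the gap between the groups was small, between the unnumbered library and WT 3. Ndufv2 passed when WT 3 was left out. Ndufa10, an accessory subunit that faces the matrix, averaged 169.6 ± 11.6 CPM in libraries labelled Hdc-/-, against 192.7 ± 9.48 CPM in WT (SD, n = 4 each; log2 fold change -0.18, edgeR adjusted p = 0.132). Its ranges overlapped, with library 2 of those labelled Hdc-/-, at 186.1 CPM, above WT 3, at 182.4 CPM. The other complex I genes had fold changes from -0.28 (Ndufs6) to -0.02 (Ndufa5), and WT 1 was the highest library for 16 of the 17.

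Complex II, succinate dehydrogenase, is shared with the citric acid cycle and is encoded wholly in the nucleus. None of its 4 genes passed (0 by edgeR, DESeq2 and limma-voom, 2 at an unadjusted p under 0.05), and their median fold change was -0.15, or -0.08 without WT 1. The 2 membrane anchors, Sdhc and Sdhd, had ranges that did not overlap. Over all genes, 6.88% had such ranges with the libraries labelled Hdc-/- lower, and 18.7% had an unadjusted p under 0.05. Sdhd had 203.4, 203.6, 194.5 and 183.6 CPM in libraries 1, 2, 3 and unnumbered of the group labelled Hdc-/-, against 265.9, 213.6, 210.6 and 206.8 CPM in WT libraries 1 to 4. WT 1 lay well above the rest, and WT 4 was only just above library 2 of those labelled Hdc-/-. The fold change was -0.19 (SE 0.0777, edgeR adjusted p = 0.188) with WT 1 and -0.10 without it. Sdha, the flavoprotein that oxidises succinate, averaged 670.3 ± 25.3 CPM in libraries labelled Hdc-/-, against 698.6 ± 28.2 CPM in WT, with overlapping ranges and a fold change of -0.06 (SE 0.0519).

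Complex III had the lowest median once WT 1 was left out, -0.12, against -0.17 with all 8 libraries. All 6 genes were below 0, 4 had an unadjusted p under 0.05, and 0 passed in edgeR and limma-voom, while DESeq2 called Uqcrc2 and Cyc1. Of all genes, 49.1% were below 0, 18.7% had an unadjusted p under 0.05 and 7.3% were called by DESeq2. Uqcrc2, one of the pair of large core proteins that face the matrix, had 221.7, 224.8, 221.0 and 224.4 CPM in libraries 1, 2, 3 and unnumbered of the group labelled Hdc-/-, against 268.3, 253.1, 241.0 and 248.3 CPM in WT libraries 1 to 4. The groups were well apart, and the fold change was -0.18 with WT 1 (SE 0.0554, edgeR adjusted p = 0.0779, DESeq2 adjusted p = 0.0283) and -0.15 without it (edgeR adjusted p = 0.0528). Cyc1, the heme protein cytochrome c1 that passes electrons to cytochrome c, had 145.5, 146.1, 141.2 and 141.9 CPM in libraries labelled Hdc-/-, against 169.7, 159.9, 153.9 and 172.7 CPM in WT. Here WT 4, not WT 1, was the highest library. The fold change was -0.19 with WT 1 (SE 0.0609, edgeR adjusted p = 0.0895, DESeq2 adjusted p = 0.0371) and -0.17 without it (edgeR adjusted p = 0.0684). Uqcrh, the hinge protein that helps cytochrome c1 to meet cytochrome c, had -0.09 with WT 1 and 0.02 without it.

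Complex IV, cytochrome c oxidase, has a catalytic core encoded in mitochondrial DNA, and its 9 genes here encode the subunits around that core. WT 1 was the highest library for all 9. With WT 1 all 9 fold changes were below 0, with a median of -0.11. Of the 9, 0 passed in edgeR, DESeq2 and limma-voom, and 1 had an unadjusted p under 0.05, against 18.7% of all genes. Without WT 1 the median was -0.01 and 5 of the 9 were below 0. Cox5a had the smallest p, with 146.8, 149.8, 149.9 and 148.8 CPM in libraries 1, 2, 3 and unnumbered of the group labelled Hdc-/-, against 191.2, 161.0, 156.4 and 153.3 CPM in WT libraries 1 to 4 (log2 fold change -0.15, SE 0.0717, edgeR adjusted p = 0.263). The ranges did not overlap, but WT 4 was close to the libraries labelled Hdc-/-, and the fold change without WT 1 was -0.07. Cox4i1, a subunit known to take part in regulation by ATP, averaged 360.6 ± 10.7 CPM in libraries labelled Hdc-/-, against 390.6 ± 50.1 CPM in WT. Within WT, library 1 stood at 465.5 CPM, while WT 2 to WT 4 lay between 361.9 and 369.6 CPM.

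Complex V, ATP synthase, had a median of -0.11, or -0.04 without WT 1, with all 6 genes below 0. Of the 6, 0 passed in edgeR, DESeq2 and limma-voom, and 2 had an unadjusted p under 0.05, against 18.7% of all genes. Atp5o, a subunit of the stalk that holds the catalytic head in place, had 201.7, 203.4, 195.9 and 193.7 CPM in libraries 1, 2, 3 and unnumbered of the group labelled Hdc-/-, against 262.9, 228.9, 213.7 and 208.3 CPM in WT libraries 1 to 4. The ranges did not overlap, and the fold change was -0.20 with WT 1 (SE 0.0709, edgeR adjusted p = 0.129) and -0.13 without it. Atp5a1 and Atp5b, the alpha and beta subunits of the catalytic head, had -0.05 and -0.14. Atp5j, of the same stalk as Atp5o, had -0.05 with WT 1 and 0.03 without it.

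Cycs, cytochrome c, carries electrons from complex III to complex IV and is released from mitochondria in cell death. It had 8.05, 7.62, 8.22 and 6.91 CPM in libraries 1, 2, 3 and unnumbered of the group labelled Hdc-/-, against 8.01, 7.37, 6.37 and 5.76 CPM in WT libraries 1 to 4, from 103 to 160 reads. The ranges overlapped, and the fold change of 0.16 (SE 0.172, edgeR adjusted p = 0.67) was smaller than its own error. Pseudogene copies at least 95% identical over at least 100 bases are annotated for 10 of the 43 genes. Cycs and Uqcrb have 3 each, Cox6c, Cox7b and Cox7c 2 each, and the other 5, Atp5o among them, 1 each. Genes without a pseudogene copy also matched other annotated genes at that threshold. Among them were Cox5b (45.1% of its transcript), Cox5a (42.0%), Uqcrc2 (26.7%) and Cox4i1 (20.1%). Of all 43 genes, Atp5o had the largest share of its transcript matched, most of its length, pseudogenes included. Cycs matched 23 other genes, pseudogenes included. Reads that fit a gene and its match may have been dropped or split in the counting, so the levels of all these genes are uncertain.

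**Figure D2:**
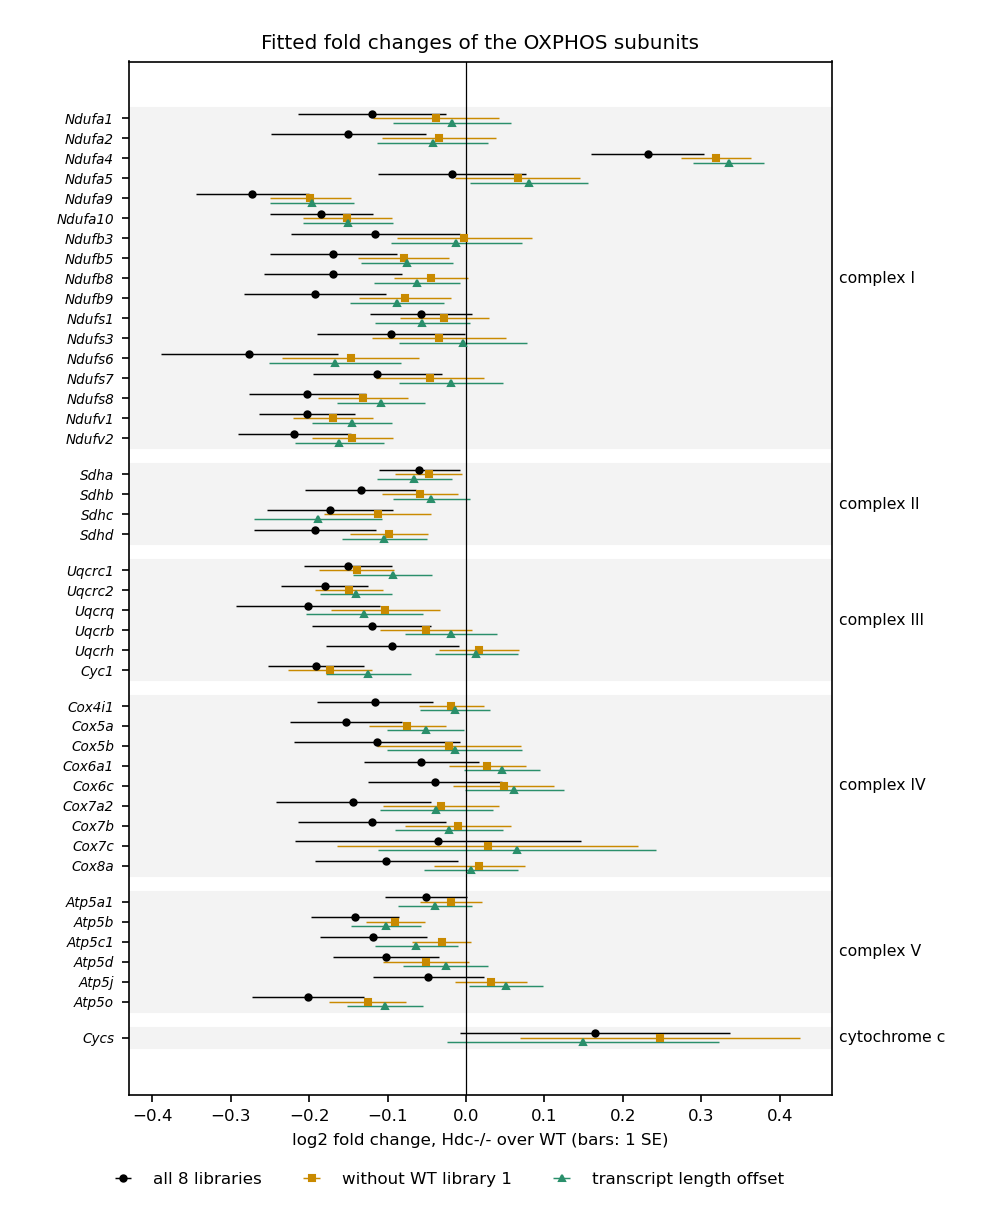
Fitted log2 fold change of each subunit gene, libraries labelled Hdc-/- over WT (x axis, bars 1 SE), from all 8 libraries (black circles), without WT library 1 (orange squares) and with a transcript length offset (green triangles). With all 8 libraries 41 of 43 lie below 0, and 34 of 43 in each of the other fits.

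Levels were also summed over the genes of each complex. The 43 genes together came to 8633 ± 94.8 CPM in libraries labelled Hdc-/-, against 9375 ± 784 CPM in WT (SD, n = 4 each). The lowest WT library, at 8703 CPM, was below the highest library labelled Hdc-/-, at 8770 CPM, and WT 1 stood at 10510 CPM. Complex I summed to 2084 to 2122 CPM in libraries labelled Hdc-/-, against 2095 to 2223 CPM in WT 2 to WT 4 and 2642 CPM in WT 1. Complex II spanned 1100 to 1176 CPM in libraries labelled Hdc-/-, against 1134 to 1312 CPM in WT. Complex III spanned 1276 to 1318 CPM in libraries labelled Hdc-/-, against 1326 to 1549 CPM in WT, with no overlap. Complex IV summed to 1073 to 1096 CPM in libraries labelled Hdc-/-, against 1072 to 1104 CPM in WT 2 to WT 4, with WT 1 at 1384 CPM. Complex V spanned 2961 to 3050 CPM in libraries labelled Hdc-/-, against 3046 to 3614 CPM in WT. The SDs of these sums were 9.81 to 43.9 CPM in libraries labelled Hdc-/-, against 74.0 to 249 CPM in WT, or 16.2 to 76.1 CPM in WT without WT 1. The sums of complexes I and IV depend on where Ndufa4 is counted, which above is with the other Nduf genes. Counted with complex IV, a placement added after the data were seen, it leaves complex I at 1788 to 1821 CPM in libraries labelled Hdc-/-, against 1858 to 2345 CPM in WT, with no overlap. Complex IV then stands at 1369 to 1403 CPM in libraries labelled Hdc-/-, against 1305 to 1351 CPM in WT 2 to WT 4 and 1681 CPM in WT 1, so that WT 2 to WT 4 all lie below the libraries labelled Hdc-/- and WT 1 above them. The medians of the fold changes of complexes I and IV are then -0.17 and -0.11, or -0.06 and 0.00359 without WT 1.

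**Figure D3:**
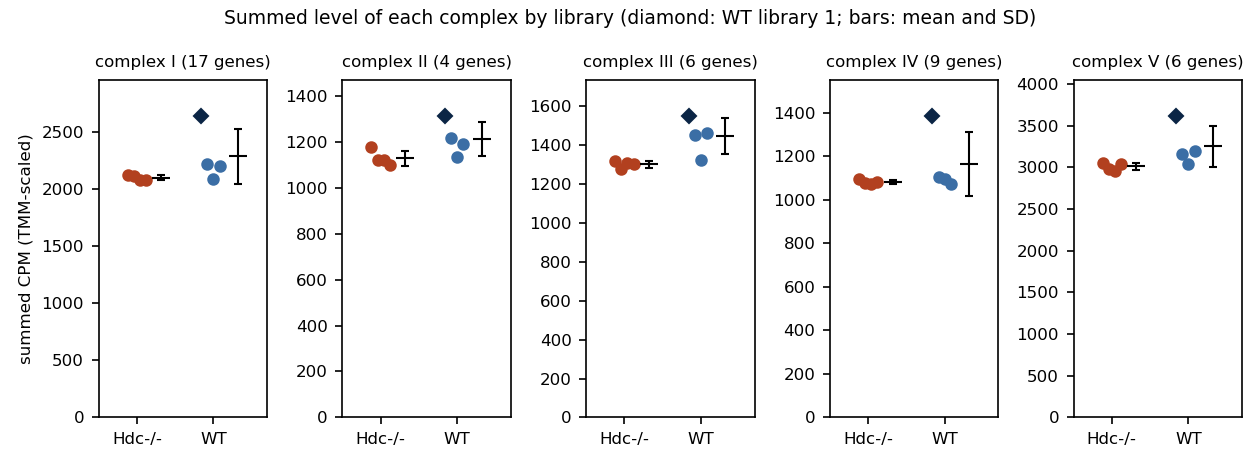
Summed CPM of the genes of complexes I to V in each library (y axis from 0, 1 panel per complex), with libraries labelled Hdc-/- in red on the left of each panel, WT libraries in blue on the right and WT library 1 as a dark diamond. Crosses give the mean and SD of each group, and WT 1 is the highest library in each of the 5 panels.

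To compare levels between genes, CPM was divided by the length in kilobases of the longest protein-coding transcript, taken from those that the annotation ranks as principal where it has any. On that scale Atp5b was highest, at 631 CPM per kilobase in libraries labelled Hdc-/-, against 697 in WT. Ndufa4 had 488 ± 12.7 in libraries labelled Hdc-/-, against 416 ± 49.0 in WT, and Cox4i1 had 471 ± 13.9 in libraries labelled Hdc-/-, against 511 ± 65.4 in WT. Ndufa4 was thus second in the libraries labelled Hdc-/- and Cox4i1 in WT, by gaps of about 1 to 2 SD. Uqcrc1 came next, with 372 in libraries labelled Hdc-/-, against 413 in WT, where it lay within the SD of Ndufa4. The lowest were Cycs (2.47 in libraries labelled Hdc-/-, against 2.20 in WT), Cox7c (12.8 in libraries labelled Hdc-/-, against 13.2 in WT) and Sdhc (18.5 in libraries labelled Hdc-/-, against 20.9 in WT). Cycs and Cox7c are among the genes with pseudogene copies, and the annotated transcripts of Cycs and Sdhc are over 3000 bases long, so a shorter transcript in these cells would give a higher level.

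**Figure D4:**
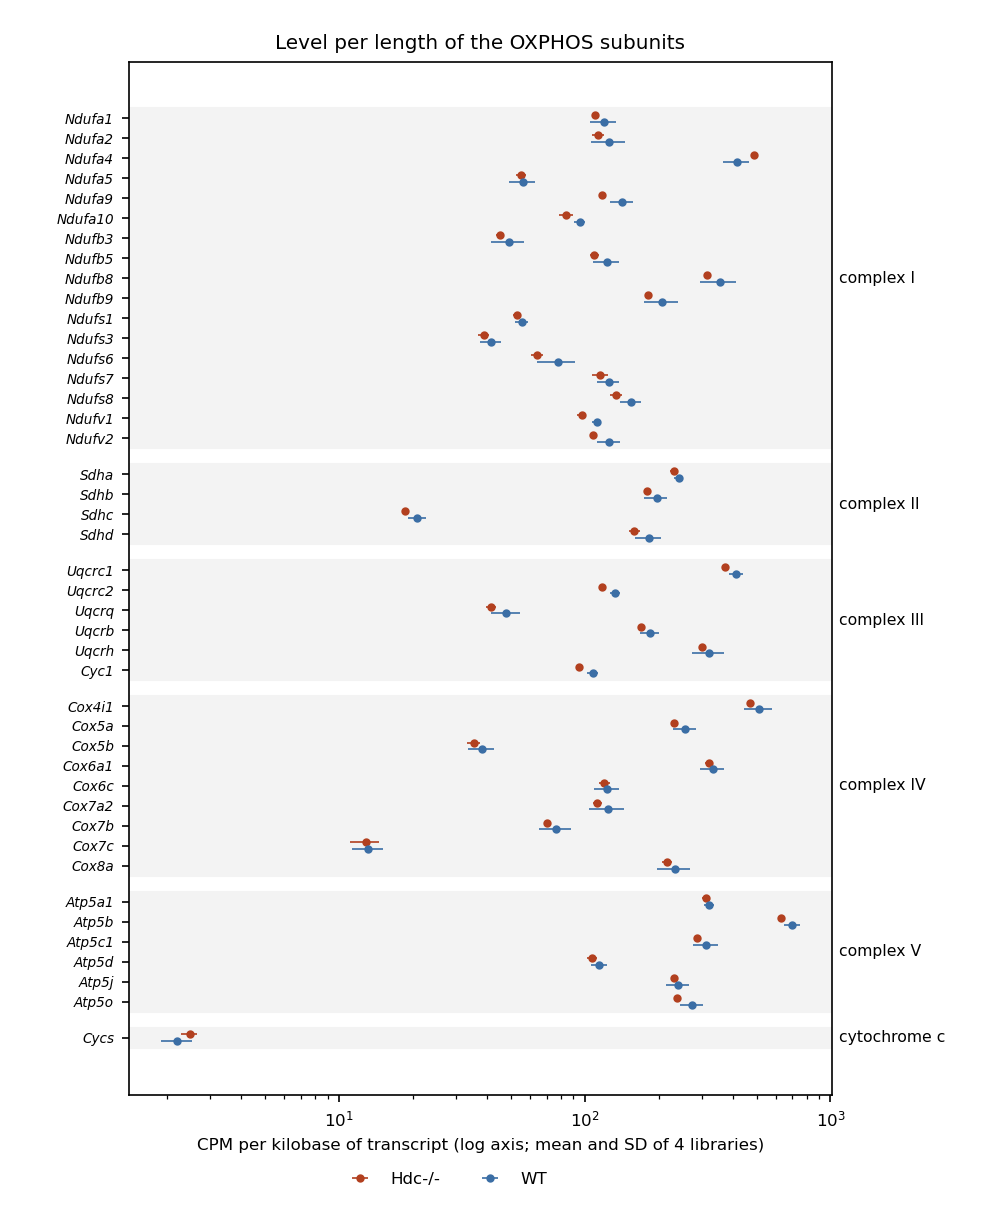
Level of each subunit gene in CPM per kilobase of transcript (log x axis), mean and SD of the 4 libraries labelled Hdc-/- in red and of the 4 WT libraries in blue. Atp5b is highest in both groups and Cycs lowest, and Ndufa4 and Cycs are the genes whose mean is higher in the libraries labelled Hdc-/-.

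The subunit genes have short transcripts, and WT 1 was high for short transcripts in general. The median transcript was 1001 bases for the 43 genes and 3056 bases for the 11224 tested genes with an annotated length. Of the 43, 21 were under 1000 bases and 37 under 2000. In WT 1 the median log2 deviation from the median of each gene over the 8 libraries was 0.30 for the 249 genes under 750 bases and -0.11 for the 2277 genes over 5000 bases. In the other 7 libraries it stayed between -0.04 and 0.02 in each length class. The median deviation of the 43 genes was 0.32 in WT 1 and -0.04 to 0.04 in the others. Spearman's rho between length and the deviation in WT 1 was -0.44 across the 43 genes and -0.38 across the 11224, a description across genes that share 1 library.

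With a per-library offset fitted to transcript length, chosen after the data were seen, the median over the 43 genes was -0.04. Of the 43, 34 were below 0, against 49.9% of all genes in that fit, and 2 were called, against 5.09% of all genes. Those were Ndufa4, higher (log2 fold change 0.33, edgeR adjusted p = 2.5e-04), and Ndufa9, lower (-0.20, edgeR adjusted p = 0.0472). With the offset and without WT 1, Ndufa4 was again called and Ndufa9 was not (edgeR adjusted p = 0.0519). By complex, medians with the offset were -0.06 for complex I, -0.08 for complex II, -0.11 for complex III, -0.01 for complex IV and -0.05 for complex V. What set WT 1 apart was not tested.

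**Figure D5:**
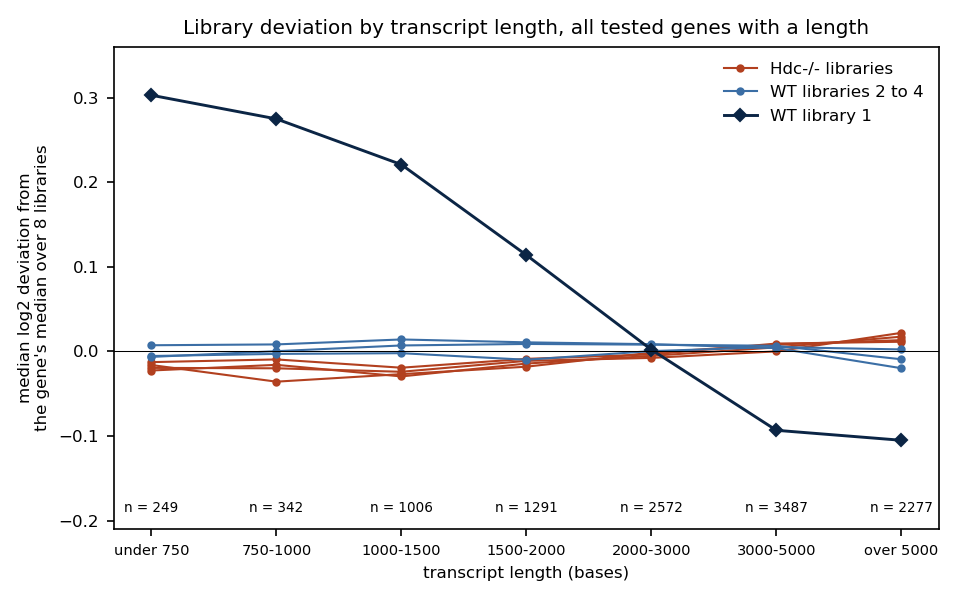
Median log2 deviation of each library from the median of each gene over 8 libraries (y axis) for tested genes in 7 classes of transcript length (x axis, with the number of genes), libraries labelled Hdc-/- in red, WT libraries 2 to 4 in blue and WT library 1 in dark blue with diamonds. WT 1 lies at 0.30 in the shortest class and -0.11 in the longest, while the other 7 libraries stay between -0.04 and 0.02.

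Other genes of the pathway were read from lists of subunits, assembly factors, enzymes and regulators. Of their 100 tested genes, 0 passed in edgeR, DESeq2 or limma-voom. The shares of all genes that passed were 4.76%, 7.3% and 4.66% in these 3. In edgeR, 18.7% of all genes had an unadjusted p under 0.05 and 49.1% were below 0. The 32 tested of 33 other nuclear subunits had a median of -0.10 (28 below 0, 3 with an unadjusted p under 0.05), or -0.03 without WT 1. The smallest p among them was that of Ndufa8, a subunit of complex I, at -0.21 (edgeR adjusted p = 0.161). Ndufs5 had 0 reads in the table. Of 9 subunit forms of other tissues, 4 were tested, with a median of 0.03, 1 below 0 and 0 at an unadjusted p under 0.05. Cox4i2, the form of subunit 4 known from lung, had 1.58 ± 0.537 CPM in libraries labelled Hdc-/-, against 1.92 ± 0.496 CPM in WT (SD, n = 4 each). The 25 tested assembly factors had a median of -0.07 (20 below 0, 3 with an unadjusted p under 0.05), or -0.04 without WT 1. Atpaf2, which helps to assemble the head of complex V, had the smallest p (-0.23, edgeR adjusted p = 0.141), with ranges that did not overlap.

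The 16 genes of the citric acid cycle and pyruvate dehydrogenase, which supply NADH and succinate, had a median of -0.08 with WT 1 and the same without it, with 15 below 0 and 4 with an unadjusted p under 0.05. Summed, they came to 3064 to 3094 CPM in libraries labelled Hdc-/-, against 3165 to 3322 CPM in WT, with no overlap. Taken singly, 0 of the 16 genes had ranges that did not overlap with the libraries labelled Hdc-/- lower, against 6.88% of all genes. Without WT 1 the count was 1, against 9.57% of all genes. Idh3g, a subunit of isocitrate dehydrogenase, had -0.21 (edgeR adjusted p = 0.102). The 8 carriers, porins and the inhibitor of ATP synthase had a median of -0.13, or -0.07 without WT 1, with 4 at an unadjusted p under 0.05. Their sums were 2969 to 3005 CPM in libraries labelled Hdc-/-, against 3127 to 3657 CPM in WT. Slc25a3, the carrier that brings in phosphate for ATP synthesis, had -0.21 (edgeR adjusted p = 0.0934). The 15 regulators of mitochondrial gene expression, among them Nrf1, had a median of 0.00, with 7 below 0 and 0 at an unadjusted p under 0.05. Gabpb1, a partner of the ETS factor GABPA, had the smallest p of that list (0.10, edgeR adjusted p = 0.466).

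Markers of red cells, neutrophils, B cells, and mast cells and basophils differed between the groups far more than the subunit genes did. Median log2 fold changes were 0.49 for macrophage, -0.67 for T and NK cell and -0.31 for dividing cell markers, against -0.12 for the subunit genes. Of all genes, 4.76% were called in either direction. Stem and progenitor markers had a median log2 fold change of 0.13, with single genes from -1.15 to 0.38. Summed red cell markers were 234.0 to 258.7 CPM in libraries labelled Hdc-/-, against 11.9 to 16.8 CPM in WT, with 5 of 6 tested genes up. The 10 neutrophil markers were all down, with sums of 805 to 1408 CPM in libraries labelled Hdc-/-, against 2644 to 4071 CPM in WT, where WT 1 was the highest. B cell markers (6 of 7 down) summed to 146 to 164 CPM in libraries labelled Hdc-/-, against 223 to 282 CPM in WT. Mast cell and basophil markers (2 of 4 down) summed to 16.8 to 24.3 CPM in libraries labelled Hdc-/-, against 89.3 to 141 CPM in WT. None of the 8 tested macrophage markers passed (0 in edgeR), with 6 at an unadjusted p under 0.05, and sums of 83.6 to 93.8 CPM in libraries labelled Hdc-/-, against 50.8 to 70.1 CPM in WT. T and NK cell markers (1 of 2 tested down) summed to 259 to 274 CPM in libraries labelled Hdc-/-, against 324 to 412 CPM in WT, and Cd3e, Cd3g and Cd8a had at most 7 reads in any library. Genes of dividing cells (5 of 9 down) summed to 2818 to 3096 CPM in libraries labelled Hdc-/-, against 3282 to 3431 CPM in WT. Stem and progenitor markers (2 up and 1 down of 13) summed to 6662 to 6861 CPM in libraries labelled Hdc-/-, against 5633 to 6525 CPM in WT, with WT 1 the lowest. The summed ranges of all 8 marker lists did not overlap between the groups. The part of these cell types in the levels of the subunit genes was not tested.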

How the data were processed

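Deposited values were raw read counts, 1 per gene symbol and library, for 8 libraries in 1 table. Per the labels' protocols, the PicoPure, SMARTer and Nextera XT kits were used for RNA extraction, cDNA amplification and library preparation; Nextera XT does not mark strand. With no molecular identifiers, amplified copies count as reads. The submitters' processing notes name build mm9, HTSeq 0.6.1, TopHat2 2.0.4, Bowtie2 and bcl2fastq 1.8.4, and neither an annotation nor a counting mode was given in the sources used here. Columns were matched to samples by name. One column of the group labelled Hdc-/- has another number and was used without one. The 2 entries with no gene name, at most 0.032% of reads, were left out.

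The test was edgeR 4.0.16 under R 4.3.3, two-sided: TMM scaling, filterByExpr (minimum count 10, minimum total 15), robust quasi-likelihood fit, Benjamini-Hochberg adjustment over all 13005 tested genes, threshold 0.05. The same code was tested on simulated data. Fold changes are the libraries labelled Hdc-/- over WT, SE is the fold change over the root of F, and SDs are over 4 libraries. Alternatives were other scalings and filters, DESeq2 1.42.0, limma-voom 3.58.1 with and without sample weights, each library left out, a replicate block, and, added after seeing the data, a transcript length offset. Libraries within a group differed by far more than counting noise (chi-square per gene of at least 6.84, over genes with at least 80 reads), so none was a copy of another.

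Transcript lengths were taken from GENCODE M21 (86.3% of tested genes), pseudogene copies from BLAST 2.17.0 and promoters from RefSeq (GRCm38.p6), all on a later build than the counts. Members and lists were chosen with earlier results of these data known. Genes described in depth are those with the smallest p, up to 6 in each direction and at least 1 of each complex, and from the other lists the gene with the smallest p.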

Additional observations from a re-analysis of the deposited data

Results flagged for a closer look

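Among 140 groups of 4 libraries examined (each subunit gene, each other gene named and each summed list, in each group), 11 held 1 library far from the other 3, by a gap above Dixon's 95% critical value for 4 samples. For independent groups chance gives about 1 in 20. These groups share libraries, and the sums share genes with the single tests, so the count is not a test against chance. In 8 of the 11 the library was WT 1, which was the highest in 6 and the lowest in 2. Sdhd stood at 265.9 CPM in WT 1, with 213.6 CPM in the nearest WT library. Cox4i1 stood at 465.5 CPM (nearest 369.6 CPM), Cox8a at 157.9 CPM (nearest 120.3 CPM) and Atp5c1 at 633.4 CPM (nearest 513.9 CPM) in WT 1. The summed level of complex IV was 1384 CPM in WT 1 (nearest 1104 CPM), and that of the carriers, porins and inhibitor 3657 CPM (nearest 3196 CPM). WT 1 was low for the summed regulators of mitochondrial gene expression, at 994.5 CPM (nearest 1076 CPM), and for the summed stem and progenitor markers, at 5633 CPM (nearest 6458 CPM). The remaining 3 were in the group labelled Hdc-/-. Ndufa5 was low in the unnumbered library, at 44.79 CPM (nearest 49.13 CPM), Ndufs6 was high in library 1, at 39.47 CPM (nearest 35.68 CPM), and the summed macrophage markers were high in library 3, at 93.75 CPM. Why these libraries stood apart was not tested.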

How the results depend on the processing

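The median over the 43 genes was below 0 in each alternative run, from -0.17 without WT 3 to -0.03 with the length offset and without WT 1. Counting each of the 43 fold changes under each alternative, 853 kept direction and side of the threshold, 30 reversed, 10 passed newly and 10 no longer passed, the last all of Ndufa9. Members called lower numbered 1, against 4 in DESeq2 (Ndufa9, Ndufv1, Uqcrc2 and Cyc1), 0 in limma-voom, 2 with sample weights (Ndufa9 and Uqcrc2), 0 with the length offset and without WT 1, and 0 to 2 with 1 library left out. Members called higher numbered 0, against 1 (Ndufa4) in DESeq2, with sample weights, with the length offset with or without WT 1, and 0 to 1 with 1 library left out. Of the other pathway genes, 0 to 1 were lower with 1 library left out (Idh3g, without WT 3). Over all genes, the 267 higher calls became 448 in DESeq2, 422 with sample weights and 137 to 382 with 1 library left out. They were 175, 137 and 154 without library 2, 3 or the unnumbered one labelled Hdc-/-, and 170 without WT 2. The 352 lower calls became 502 in DESeq2, 495 with sample weights and 242 to 433 with 1 library left out. The share of all genes called in either direction was 4.76%, against 7.3% in DESeq2, 4.66% in limma-voom and 7.05% with sample weights. It was 5.09% with the length offset, 6.15% with the offset and without WT 1, and 2.89% to 6.19% with 1 library left out.

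Fold changes that turned above 0 were small. With sample weights they were 0.0447 for Ndufa5, 0.00695 for Cox6a1, 0.0168 for Cox6c, 0.00316 for Cox7c and 0.00763 for Atp5j. With the length offset they were 0.0802 for Ndufa5, 0.0132 for Uqcrh, 0.0462 for Cox6a1, 0.0617 for Cox6c, 0.0647 for Cox7c, 0.00641 for Cox8a and 0.0510 for Atp5j. With the offset and without WT 1 they were 0.0867 for Ndufa5, 0.0152 for Ndufb3, 0.0245 for Uqcrh, 0.036 for Cox6a1, 0.0648 for Cox6c, 0.0135 for Cox7b, 0.0345 for Cox7c, 0.0247 for Cox8a and 0.0506 for Atp5j. With 1 library left out, Ndufa5 ranged from -0.0681 to 0.0658, Uqcrh from -0.151 to 0.0169, Cox6a1 from -0.0947 to 0.0270, Cox6c from -0.0857 to 0.0482, Cox7c from -0.130 to 0.0494, Cox8a from -0.153 to 0.0172 and Atp5j from -0.0888 to 0.0316. The cause was not tested.

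Same-numbered libraries did not deviate together: their deviations from their group means had correlations of -0.06, -0.02 and -0.000331. These values cannot show whether the samples were paired, since paired samples need not deviate together. With the replicate block on the 3 numbered libraries per group, 123 genes were higher, 189 lower and 0 members lower, and with no block on the same libraries 134, 211 and 0. Cox7c and Cycs, with 92 to 160 reads per library, had the largest errors of the members (0.182 and 0.172). With Ndufa4 counted with complex IV, the mean summed level in libraries labelled Hdc-/- minus that in WT was -232.9 CPM for complex I (-188.8 as listed) and -37.6 CPM for complex IV (-81.8 as listed), and without WT 1 as well it was -130.6 CPM and, with the direction turned, 50.3 CPM.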
